A study of Mus musculus with 30 samples.

Results

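The 10 genes of glucose uptake and insulin signalling described here were SLC2A4, SLC2A1, HK2, TBC1D1, TBC1D4, TXNIP, IRS1, IRS2, FOXO1 and FOXO3. They were chosen by gene symbol, ignoring case, and all 10 were found among the 21073 genes of the expression table. Expression was measured by RNA-Seq in the extensor digitorum longus (EDL), a fast muscle of the lower hind limb, of female SJL/J mice. Experimental autoimmune encephalomyelitis (EAE), a relapsing-remitting model of multiple sclerosis, was induced with the myelin peptide PLP139-151 in complete Freund's adjuvant (CFA), without pertussis toxin. Control mice were immunized with ovalbumin in CFA (OVA) or left unimmunized (Ctrl). Muscles were taken 14 days after induction, at the peak of disease, or 40 days after it, in the second remission, from 5 mice per group and day. The mice of day 40 were not those of day 14, and no batch was given for any of the 30 libraries.

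Insulin binds its receptor at the muscle surface, and the receptor phosphorylates the docking proteins IRS1 and IRS2, which recruit phosphoinositide 3-kinase and so activate the kinase Akt. Akt phosphorylates the Rab GTPase-activating proteins TBC1D4 and TBC1D1, which otherwise hold vesicles carrying the glucose transporter GLUT4 inside the fibre, and it keeps the transcription factors FOXO1 and FOXO3 out of the nucleus. Glucose that enters is trapped by phosphorylation, for which HK2 is the main enzyme of muscle, while the arrestin-like protein TXNIP restrains uptake and is itself induced by glucose. FoxO factors are known to drive genes of protein breakdown in muscle and, in several tissues, IRS2.

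The promoters of 3 members are shown because they hold, among the members, all the matches to the FoxO motifs searched, and TXNIP the most matches to a carbohydrate response half-site. RefSeq promoter windows of 300 bases (GRCm38.p6, the assembly of mm10) were found for 9 members, with 2 windows for TBC1D1; none was used for SLC2A4. The motifs CACGNG (a half-site of the carbohydrate response elements read by MondoA and ChREBP), GTAAACA (the FoxO site) and CAAAACA (a FoxO insulin response core) were searched on both strands. Below are the 250 bases before each start, 5′ to 3′ on the gene's strand, with matches in capitals, for TXNIP (chr3:96557707-96557956, plus strand), IRS2 (chr8:11008930-11009179, minus strand) and IRS1 (chr1:82291440-82291689, minus strand).
TXNIP: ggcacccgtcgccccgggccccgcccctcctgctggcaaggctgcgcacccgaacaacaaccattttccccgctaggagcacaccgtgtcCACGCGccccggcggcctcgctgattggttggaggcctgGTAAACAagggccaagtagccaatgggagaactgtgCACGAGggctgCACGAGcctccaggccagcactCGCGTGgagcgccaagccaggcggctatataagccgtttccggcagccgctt
IRS2: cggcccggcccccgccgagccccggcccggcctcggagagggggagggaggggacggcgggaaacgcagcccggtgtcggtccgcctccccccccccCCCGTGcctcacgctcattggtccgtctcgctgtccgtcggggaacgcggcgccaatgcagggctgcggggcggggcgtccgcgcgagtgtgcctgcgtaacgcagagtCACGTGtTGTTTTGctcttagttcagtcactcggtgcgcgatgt
IRS1: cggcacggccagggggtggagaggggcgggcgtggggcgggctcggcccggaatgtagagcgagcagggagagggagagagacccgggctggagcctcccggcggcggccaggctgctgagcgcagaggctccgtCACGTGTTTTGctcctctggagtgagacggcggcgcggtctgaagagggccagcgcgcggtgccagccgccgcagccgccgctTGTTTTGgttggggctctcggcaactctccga
The TXNIP promoter held 4 matches to CACGNG and 1 to GTAAACA. The IRS2 promoter held 2 matches to CACGNG and 1 to CAAAACA, and the IRS1 promoter 1 and 2, of which the first pair shares letters. FOXO3 held 2 matches to CACGNG and 1 window of TBC1D1 held 1, and the windows of FOXO1, SLC2A1, HK2 and TBC1D4 held none of the motifs. Of all 32851 promoter windows, 27.5% held CACGNG, 3.65% GTAAACA and 6.28% CAAAACA. Binding to these letters was not measured.

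Between 17060000 and 23390000 reads per mouse (median 20350000) were estimated to lie on genes. The fast-fibre markers dominated every library, with a summed level of 52964 RPKM (reads per kilobase of exon, scaled to library size) or more, and all 9 were above 3 RPKM in each group. Genes that mark cell types differed between the groups of day 14, those of neutrophils in OVA mice as well as in EAE mice. The sum of 8 neutrophil markers was 218 to 404 RPKM in EAE mice, 68.6 to 236 in OVA mice and 3.85 to 10.7 in Ctrl mice. The sum of 7 macrophage markers was 130 to 290 RPKM in EAE mice, 256 to 389 in OVA mice and 270 to 409 in Ctrl mice. In the same order, that of 6 erythrocyte markers was 26.5 to 189, 475 to 1586.5 and 189 to 684. That of 6 tendon markers was 280 to 435, 506 to 634 and 498 to 716. That of 6 slow-fibre markers was 789 to 1323, 1325 to 2110 and 1305 to 2232. That of the 9 fast-fibre markers was 52964 to 66787, 67000 to 94753 and 73647 to 101688. Single markers did not all follow these sums. By the calls defined below, 4 of 5 tendon markers tested were lower in EAE than in Ctrl mice and 1 was higher. Lower were also 4 of 7 macrophage, 4 of 4 erythrocyte, 2 of 6 slow-fibre and 1 of 9 fast-fibre markers tested, with none higher. All 5 neutrophil markers tested were higher. Over all genes 14.6% were called higher and 11.8% lower. The Ctrl libraries of day 14 also stood apart in how their values moved with the GC content of transcripts, and fits with each library's slopes on length and GC content removed are given with the last results. No marker was at 0 in a whole group, and the part of these shifts in the results on the 10 genes was not tested. In whole muscle, fewer cells of a type and less RNA per cell cannot be told apart.

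At the peak of disease the mRNAs of TBC1D1, IRS2, FOXO1 and FOXO3 were higher in EAE mice than in unimmunized mice, by 1.83- to 3.10-fold, while SLC2A4 was lower in every EAE mouse than in any unimmunized mouse, by 1.37-fold on average, which was so of 11% of all genes tested. A gene was called where limma gave an adjusted p below 0.05 (Benjamini-Hochberg over all genes tested) and the fold change was above 1.5, among genes with a mean above 3 RPKM in a compared group. Between EAE and Ctrl mice on day 14, 4 of the 10 members were called higher and none lower, in a comparison that called 26.4% of 8771 genes, and 2 more, SLC2A4 and TXNIP, passed the adjusted p but not the fold change. Between EAE and OVA mice, 2 were called higher and 1 lower, against 20.3% of 8674 genes. These comparisons share the 5 EAE mice. On day 14 TBC1D1 and FOXO3 had means above 3 RPKM only in the EAE group (3.28 and 4.66). They were at 1.32 and 1.68 in Ctrl and at 1.71 and 2.98 in OVA mice. They entered the tests through the group where they were high, so a call of lower was hardly possible for them. Between the EAE groups of the days too they entered only through day 14 (2.14 and 1.62 RPKM on day 40). Between OVA and Ctrl mice none of the 8 members tested was called, where 0.142% of 8471 genes were. The median log2 fold change of EAE against Ctrl was 0.38 over the members and 0.11 over all genes, and against OVA 0.29 and 0.11.

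**Figure D1:**
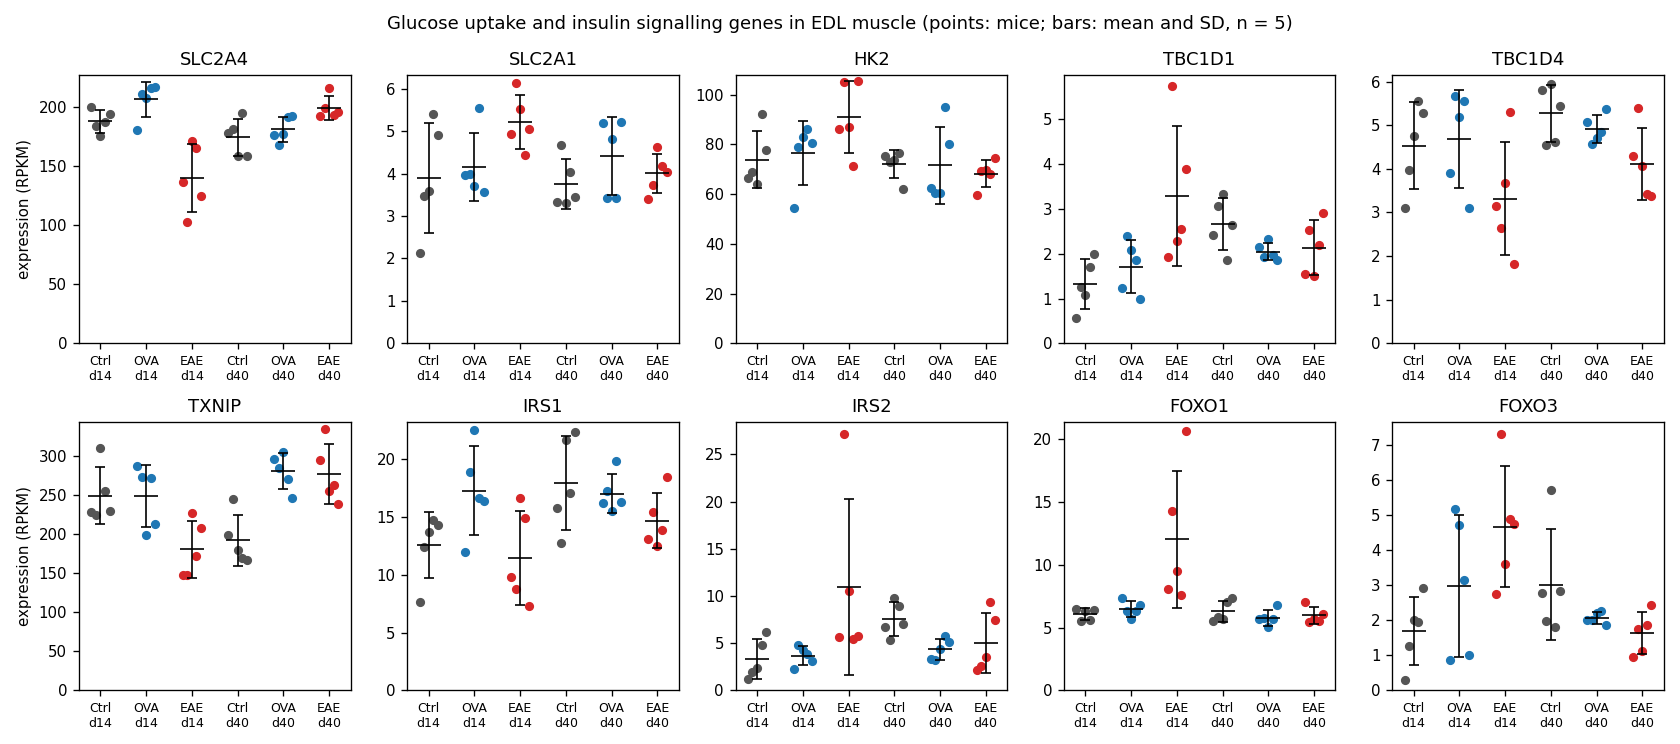
Expression of the 10 genes (RPKM, linear axes from 0) in each mouse (points) by group and day, with the mean and SD of 5 mice (bars). SLC2A4 and FOXO1 of the EAE mice on day 14 do not overlap those of the other groups of that day, at 103 to 171 and 7.60 to 20.6 RPKM.

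SLC2A4 (chr11:69942539-69948188, minus strand) encodes GLUT4, the transporter that insulin and contraction bring to the surface of muscle fibres. In the EAE mice of day 14 it was at 136, 103, 171, 165 and 125 RPKM, in the OVA mice at 181, 211, 208, 216 and 217, and in the Ctrl mice at 200, 184, 175, 187 and 194. All 5 EAE mice lay below all mice of both control groups, as 11% of all genes tested did against Ctrl mice and 8.2% against OVA mice, and mice 2 and 5 lay farthest below. The log2 fold change was -0.45 ± 0.13 (SE) against Ctrl mice (adjusted p = 0.00856, limma) and -0.58 ± 0.13 against OVA mice (adjusted p = 0.00203), a level lower by 1.37-fold and by just under 1.5-fold. Neither reached the fold change required for a call. Against OVA mice the value stood close to that threshold, and without mouse 1 of the OVA group or mouse 3 or 4 of the EAE group it was -0.63, -0.66 and -0.65, past it. On day 40 EAE mice were at 192, 199, 216, 194 and 195 RPKM and Ctrl mice at 178, 181, 159, 195 and 159, and the groups overlapped (log2 fold change 0.20 ± 0.07, adjusted p = 0.0936).

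SLC2A1 (chr4:119108711-119137983, plus strand) encodes GLUT1, a basal transporter that does not depend on insulin. It was at 4.93, 6.13, 5.52, 4.43 and 5.05 RPKM in EAE mice on day 14, at 3.97, 3.99, 3.7, 5.54 and 3.57 in OVA mice and at 2.14, 3.47, 3.58, 5.40 and 4.90 in Ctrl mice. The groups overlapped, and the log2 fold change was 0.47 against Ctrl mice (95% interval 0.04 to 0.90, adjusted p = 0.0651, limma) and 0.33 against OVA mice (-0.10 to 0.76, adjusted p = 0.206). The first passed the threshold without mouse 4 of the Ctrl group (0.60, adjusted p = 0.0217). HK2 (chr6:82725025-82774454, minus strand), the hexokinase that commits glucose to metabolism in the fibre, was at 86.3, 105, 87.2, 71.2 and 105 RPKM in EAE mice, at 54.3, 78.8, 82.9, 86.1 and 80.6 in OVA mice and at 66.4, 68.9, 63.9, 92.1 and 77.7 in Ctrl mice. Its log2 fold change was 0.30 against Ctrl mice (-0.01 to 0.61, adjusted p = 0.104) and 0.25 against OVA mice (-0.06 to 0.57, adjusted p = 0.189), so that no difference was shown beyond the spread. Within the EAE group, mice 2 and 5 had the highest HK2 and the lowest SLC2A4.

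TBC1D1 and TBC1D4, the pair of Rab GTPase-activating proteins, had fold changes of opposite sign on day 14. TBC1D1 (chr5:64156305-64351486, plus strand), which also answers to contraction through AMPK, was at 1.93, 5.74, 2.30, 2.55 and 3.90 RPKM in EAE mice on day 14, at 1.23, 2.39, 2.08, 1.87 and 0.987 in OVA mice and at 0.557, 1.27, 1.08, 1.71 and 2.00 in Ctrl mice. It was 2.37-fold higher in EAE than in Ctrl mice (log2 fold change 1.24 ± 0.34, adjusted p = 0.00796, limma). EAE mouse 2 alone reached 5.74 RPKM, and without it the gene fell under the filter on the level and was not tested. Against OVA mice the log2 fold change of 0.86 ± 0.34 missed the threshold (adjusted p = 0.0590) and passed it without mouse 2 of the OVA group (0.99, adjusted p = 0.0442) or mouse 1 of the EAE group (1.01, adjusted p = 0.0375). TBC1D4 (chr14:101442360-101609191, minus strand), also known as AS160 and the main Akt substrate of the pair, was at 3.16, 2.65, 3.66, 5.29 and 1.81 RPKM in EAE mice, at 3.89, 5.67, 5.19, 5.56 and 3.11 in OVA mice and at 3.10, 3.96, 4.76, 5.56 and 5.27 in Ctrl mice. EAE mice 2 and 5 were again the lowest, and mouse 4 lay among the controls. The log2 fold change was -0.49 against Ctrl mice (-1.02 to 0.03, adjusted p = 0.110) and -0.53 against OVA mice (-1.06 to -0.01, adjusted p = 0.0982), and without EAE mouse 4 it was -0.68 (adjusted p = 0.0275) and -0.72 (adjusted p = 0.0248). TBC1D1 rested on an estimated 82.2 to 721 reads per library and TBC1D4 on 246 to 814, against 4938 to 11520 for SLC2A4.

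TXNIP (chr3:96557957-96561883, plus strand), the glucose-induced brake on uptake whose promoter is shown above, had the highest mean level of the 10 genes in all 6 groups. It was at 147, 148, 227, 171 and 208 RPKM in EAE mice on day 14, at 287, 272, 198, 271 and 212 in OVA mice and at 227, 224, 309, 255 and 229 in Ctrl mice. EAE mouse 3, at 227 RPKM, reached into the Ctrl group, and the other EAE mice lay below every Ctrl mouse. The log2 fold change was -0.48 ± 0.15 against Ctrl mice (adjusted p = 0.0167, limma) and -0.47 ± 0.15 against OVA mice (adjusted p = 0.0222), a 1.39-fold difference in each case and under the fold change required. On day 40 the level stood the other way. Ctrl mice were at 198, 245, 179, 169 and 166 RPKM, OVA mice at 296, 284, 304, 270 and 246 and EAE mice at 294, 334, 254, 262 and 238. The log2 fold change of EAE against Ctrl mice was 0.53 ± 0.11 (adjusted p = 0.0236, limma). That of OVA against Ctrl mice was 0.56 ± 0.11 (limma, unadjusted p = 8.73e-05, adjusted p = 0.760 in a comparison without any call). All 5 OVA mice lay above all 5 Ctrl mice, as was so for 0.287% of all genes tested. Between EAE and OVA mice the log2 fold change was -0.03 (-0.26 to 0.20). Without Ctrl mouse 2, which had the highest level of its group, both values against Ctrl mice passed the threshold, at 0.63 (adjusted p = 0.0308) and 0.65 (adjusted p = 0.0478), and the first also did without EAE mouse 5 (0.59, adjusted p = 0.0329).

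The docking proteins also had fold changes of opposite sign on day 14. IRS2 (chr8:10984681-11008458, minus strand) was at 5.62, 27.2, 10.5, 5.46 and 5.76 RPKM in EAE mice on day 14, at 2.24, 4.82, 4.31, 3.80 and 3.08 in OVA mice and at 1.17, 1.88, 2.35, 4.82 and 6.15 in Ctrl mice. Every EAE mouse lay above every OVA mouse, as was so for 18% of all genes tested. EAE mouse 2 stood far above the rest, while mouse 5 of the Ctrl group overlapped with the EAE group. IRS2 was 3.10-fold higher than in Ctrl mice (log2 fold change 1.63 ± 0.46, adjusted p = 0.00864, limma) and 2.43-fold higher than in OVA mice (1.28 ± 0.46, adjusted p = 0.0361). The first call was kept without any single mouse (1.22 to 1.91). The second was lost without EAE mouse 2 (0.88, adjusted p = 0.103) or 3 (1.22, adjusted p = 0.0663), or without OVA mouse 1 (1.13, adjusted p = 0.0803), 4 (1.31, adjusted p = 0.0557) or 5 (1.24, adjusted p = 0.0697). IRS1 (chr1:82233101-82291416, minus strand), the more abundant of the pair, was at 9.84, 8.77, 16.6, 15.0 and 7.28 RPKM in EAE mice, at 12.0, 18.9, 22.5, 16.7 and 16.4 in OVA mice and at 7.65, 12.4, 13.7, 14.7 and 14.3 in Ctrl mice. It was 1.55-fold lower than in OVA mice (log2 fold change -0.63 ± 0.23, adjusted p = 0.0442), a call lost without OVA mouse 2, 3, 4 or 5 (-0.59, -0.53, -0.63 and -0.64) or EAE mouse 1, 2 or 5 (-0.59, -0.55 and -0.48), with adjusted p between 0.068 and 0.125. Both calls against OVA mice were also lost with no filter on the level (adjusted p = 0.0608 for IRS2 and 0.0708 for IRS1). Against Ctrl mice it was -0.16 (-0.66 to 0.34, adjusted p = 0.589).

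FOXO1 (chr3:52268336-52353221, plus strand), a transcription factor of the fasting and atrophy programmes, was called higher against both control groups. It was at 8.05, 14.3, 9.55, 7.60 and 20.6 RPKM in EAE mice on day 14, at 7.39, 6.29, 5.70, 6.34 and 6.83 in OVA mice and at 6.50, 5.53, 6.36, 5.58 and 6.36 in Ctrl mice. All 5 EAE mice lay above all control mice of that day, which happened for 21.2% of all genes against Ctrl mice and for 18.0% against OVA mice, and mice 2 and 5 lay far above the other 3. FOXO1 was 1.83-fold higher than in Ctrl mice (log2 fold change 0.87 ± 0.21, adjusted p = 0.00331, limma) and 1.71-fold higher than in OVA mice (0.77 ± 0.21, adjusted p = 0.00880). Without EAE mouse 5 the second value was 0.55, under the fold change required (adjusted p = 0.0148). The SD of FOXO1 was 5.49 RPKM among EAE mice against 0.471 among Ctrl and 0.633 among OVA mice. FOXO3 (chr10:42181841-42276755, minus strand), its relative, was at 2.75, 7.31, 3.61, 4.89 and 4.75 RPKM in EAE mice, at 0.848, 5.18, 4.71, 3.14 and 1.01 in OVA mice and at 0.295, 1.26, 2.00, 1.93 and 2.92 in Ctrl mice. It was 3.07-fold higher than in Ctrl mice (1.62 ± 0.55, adjusted p = 0.0240), where only EAE mouse 1 overlapped with the Ctrl group. The call was lost without Ctrl mouse 1, the lowest of all 30 mice (1.14, adjusted p = 0.0638), or without EAE mouse 2 (1.44, adjusted p = 0.0639). The OVA mice spread from 0.848 to 5.18 RPKM, and the log2 fold change against them was 0.89 (-0.27 to 2.05, adjusted p = 0.210).

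**Figure D2:**
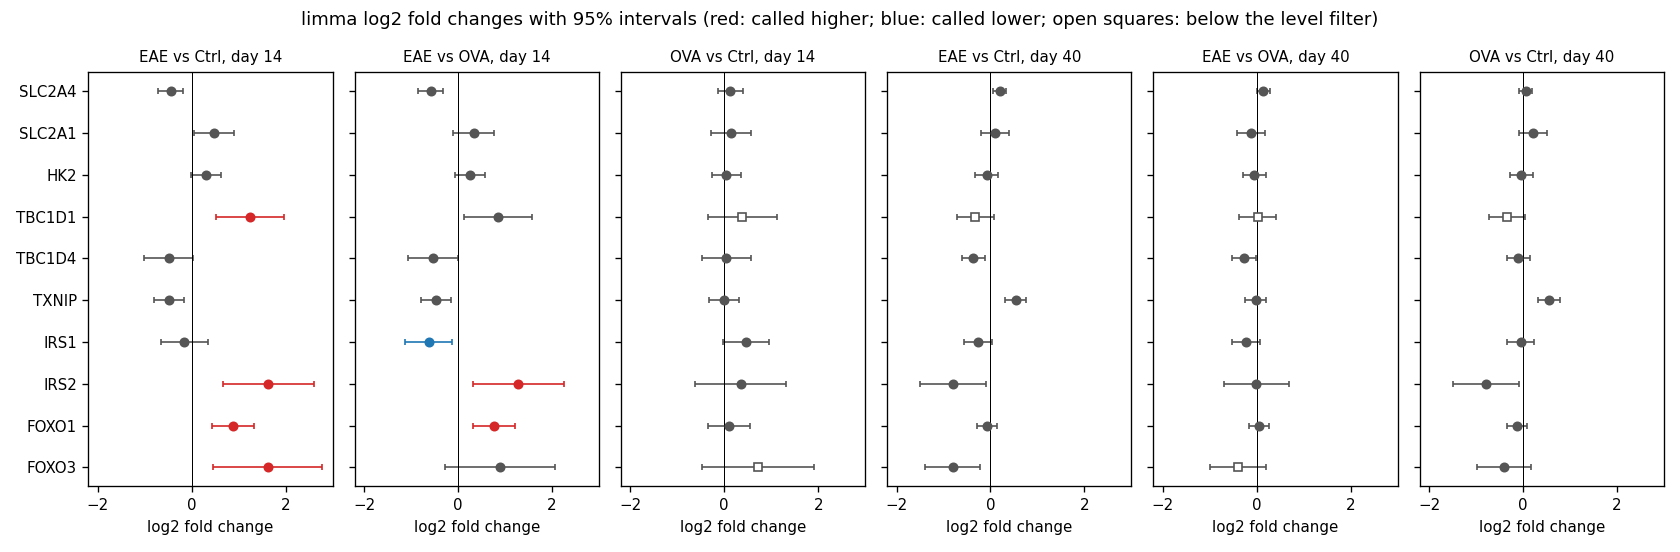
Log2 fold changes of the 10 genes in the 6 comparisons within a day, with 95% intervals from limma; red and blue mark calls in each direction, and open squares mark genes below the filter of 3 RPKM. Calls stand only in the comparisons of EAE mice on day 14, with 4 against Ctrl and 3 against OVA mice.

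Ratios within a mouse, which depend little on the scaling of its library, were compared between related members. They were not corrected for the library slopes given with the last results. FOXO1 and FOXO3 followed the length slope unequally, as did TBC1D1 and TBC1D4. The log2 ratio of SLC2A4 to SLC2A1 was 4.70 ± 0.43 (SD, n = 5) in EAE mice on day 14, 5.62 ± 0.25 in OVA mice and 5.62 ± 0.54 in Ctrl mice. It was 0.91 lower in EAE than in OVA mice, with no overlap (exact permutation test, 2-sided, p = 0.00794, the smallest that 5 against 5 mice can give, adjusted p = 0.0476 over 24 tests), and the difference of -0.92 from Ctrl mice gave an adjusted p = 0.0544 in the same exact test. The ratio of TBC1D1 to TBC1D4 was -0.04 ± 1.03 in EAE mice, with a pair of mice at 1.06 and 1.09 and the other 3 at -1.03 to -0.65, against -1.43 ± 0.17 in OVA and -1.78 ± 0.38 in Ctrl mice. All EAE mice lay above all control mice, by a mean of 1.39 and 1.74 (adjusted p = 0.0476 each, exact permutation test). The ratio of IRS1 to IRS2 was 0.32 ± 1.16 in EAE mice, 2.23 ± 0.20 in OVA mice and 2.11 ± 0.67 in Ctrl mice. The difference was -1.91 from OVA mice, with all EAE mice below (adjusted p = 0.0476, exact permutation test), and -1.79 from Ctrl mice (adjusted p = 0.0544). Every ratio test that passed stood at the smallest p of the exact test and drew on the same 5 EAE mice. They are therefore not separate results, and each passed the correction only because the others stood there too. FOXO1 to FOXO3 differed in no comparison beyond its spread, with an adjusted p of 0.324 or more in the exact test. On day 40 no ratio passed, and the lowest adjusted p was 0.0544 for IRS1 to IRS2, 0.74 higher in OVA than in Ctrl mice (exact permutation test).

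**Figure D3:**
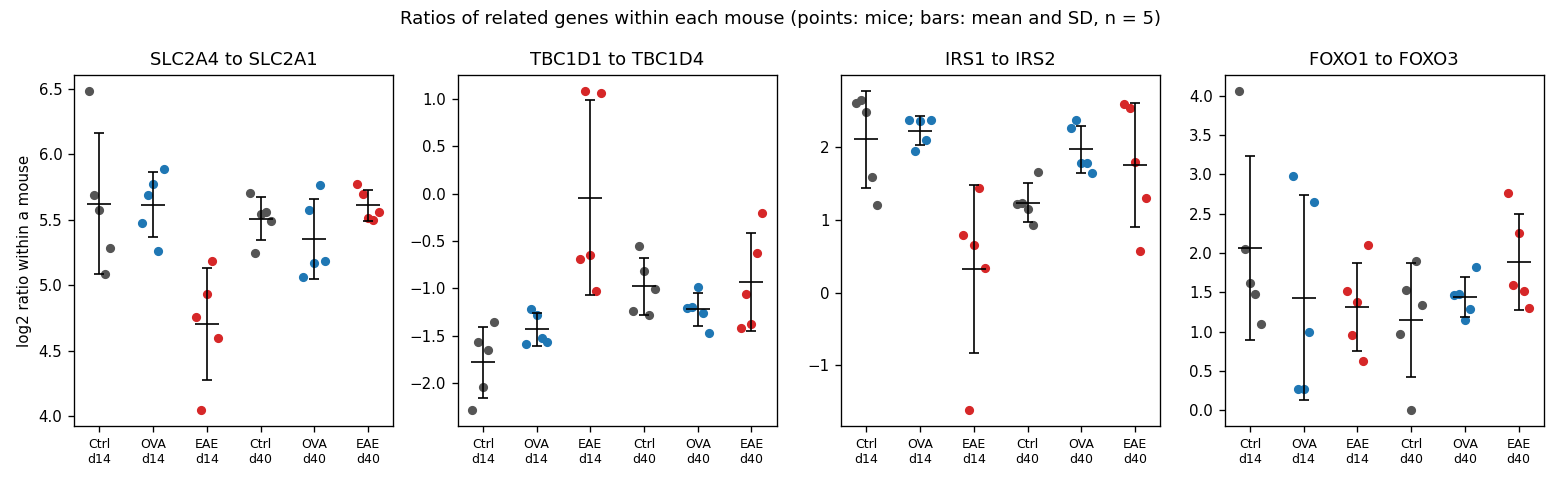
Log2 ratios of related members within each mouse (points), with the mean and SD of 5 mice per group (bars). On day 14 the EAE mice lie below the OVA mice for SLC2A4 to SLC2A1 and IRS1 to IRS2 and above both control groups for TBC1D1 to TBC1D4, without overlap.

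By the second remission no member was called between groups. On day 40 none of the 9 members tested was called between EAE and Ctrl mice (0.46% of all genes were), none of 8 between EAE and OVA mice (0.209%), and none of 9 between OVA and Ctrl mice (0% of 8706 genes, with 272 at an unadjusted p below 0.05 in limma). The largest differences between EAE and Ctrl mice that missed the threshold were those of FOXO3, at -0.81 (-1.38 to -0.23, adjusted p = 0.0899), and IRS2, at -0.80 (-1.49 to -0.10, adjusted p = 0.138). Ctrl mice of day 40 had IRS2 at 6.73, 5.37, 9.75, 8.94 and 7.01 RPKM, OVA mice at 3.27, 3.24, 4.42, 5.73 and 5.13, and EAE mice at 2.10, 2.57, 3.52, 9.31 and 7.43, so that the EAE group spread over most of the range of both control groups. FOXO3 passed without Ctrl mouse 4 (-0.95, adjusted p = 0.0285). It entered this test only through the Ctrl group, at a mean of 3.01 RPKM against 1.62 in EAE mice. A call of higher was thus hardly possible for it. Ctrl mouse 3 stood highest in that group, at 5.70 RPKM. FOXO1, at 5.48 to 7.03 RPKM in EAE and 5.52 to 7.33 in Ctrl mice, differed by -0.07 (-0.29 to 0.14, adjusted p = 0.659).

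Between the days, the EAE groups differed in 4 of the 10 members, in a comparison that called 21.1% of all genes. TXNIP was 1.55-fold higher on day 40 than on day 14 (log2 fold change 0.63 ± 0.13, adjusted p = 0.00033, limma), FOXO1 fell by 0.90 ± 0.17 (adjusted p = 9.16e-05), FOXO3 fell by 1.47 ± 0.46 (adjusted p = 0.00935) and IRS2 fell by 1.03 ± 0.42 (adjusted p = 0.0450). SLC2A4 and TXNIP were higher in all 5 EAE mice of day 40 than in any of day 14, and FOXO1 and FOXO3 were lower in all 5. The share of all genes without overlap was not counted, so these separations are a description only. The SLC2A4 difference was 0.53 ± 0.10 (adjusted p = 6.85e-05, limma), under the fold change required. The value passed that fold change without EAE mouse 3 or 4 of day 14 (0.61 and 0.60). TXNIP fell under it without EAE mouse 1 or 2 of day 14 (0.56 and 0.57) or EAE mouse 2 of day 40 (0.56). The call of IRS2 was lost without EAE mouse 2 or 3 of day 14 (-0.63 and -0.97) or EAE mouse 1, 2 or 3 of day 40 (-0.79, -0.86 and -0.97), with no filter on the level (adjusted p = 0.0705) and under quantile normalization (adjusted p = 0.051). None of the 8 members tested differed between the OVA groups (3.97% of all genes did). Between the Ctrl groups, where 9.37% of all genes were called, IRS2 was 2.63-fold higher on day 40 (1.39 ± 0.42, adjusted p = 0.0178). That call was lost without Ctrl mouse 1 of day 14 (1.10, adjusted p = 0.0845) or Ctrl mouse 3 of day 40 (1.29, adjusted p = 0.0557). Anything else that differed between the days cannot be told apart from the day.

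The change itself was tested as the difference between the EAE effect of day 40 and that of day 14. Relative to Ctrl mice 6 of the 10 members passed, in a test that called 32.7% of all genes: SLC2A4 (0.64 ± 0.14, adjusted p = 0.000586, limma) and TXNIP (1.01 ± 0.19, adjusted p = 0.000132) upward, and TBC1D1 (-1.56 ± 0.40, adjusted p = 0.00255), IRS2 (-2.43 ± 0.60, adjusted p = 0.00188), FOXO1 (-0.94 ± 0.24, adjusted p = 0.00247) and FOXO3 (-2.43 ± 0.65, adjusted p = 0.00344) downward. Relative to OVA mice, where 21.8% of all genes were called, 2 passed, SLC2A4 at 0.72 ± 0.14 (adjusted p = 0.000255) and FOXO1 at -0.73 ± 0.24 (adjusted p = 0.0211). The differences relative to Ctrl mice included those of the Ctrl mice themselves between the days, which were 1.39 for IRS2, 1.04 for TBC1D1 (not tested, below 3 RPKM), 0.96 for FOXO3 (adjusted p = 0.102) and -0.38 for TXNIP (adjusted p = 0.0334). Relative to OVA mice none of these 4 genes passed: IRS2 was at -1.29 ± 0.60 (adjusted p = 0.0937), TBC1D1 at -0.84 ± 0.40 (adjusted p = 0.104), FOXO3 at -1.29 ± 0.65 (adjusted p = 0.120) and TXNIP at 0.44 ± 0.19 (adjusted p = 0.0673). IRS2 passed without EAE mouse 4 of day 40 (-1.57, adjusted p = 0.0414). The SLC2A4 difference relative to Ctrl mice fell under the fold change required without EAE mouse 2 of day 14 (0.54). The FOXO1 difference relative to OVA mice was lost without EAE mouse 2 (-0.64, adjusted p = 0.0503) or 5 (-0.51, adjusted p = 0.0387) of day 14, and under median-of-ratios scaling (-0.61, adjusted p = 0.0635) and quantile normalization (-0.52, adjusted p = 0.108). The median over all genes was -0.15 relative to Ctrl and -0.16 relative to OVA mice. TBC1D1 entered these tests only through the EAE group of day 14, at a mean of 3.28 RPKM. So did FOXO3 relative to OVA mice, at 4.66 RPKM. Relative to Ctrl mice, FOXO3 also passed the filter in the Ctrl group of day 40, at 3.01 RPKM.

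The other genes of the pathway were counted in lists by role. Between EAE and Ctrl mice on day 14, 3 of the 11 genes tested from the insulin receptor to Akt were called higher and none lower (median log2 fold change 0.51, against 0.11 over all genes). Over all genes 14.6% were called higher and 11.8% lower in this comparison, and 11% and 9.28% against OVA mice. AKT2, the Akt of insulin-responsive tissue, was at 93.5 ± 17.3 RPKM (SD, n = 5) in EAE mice, 50.6 ± 3.39 in OVA mice and 49.4 ± 1.42 in Ctrl mice (0.90 ± 0.12 against Ctrl mice, adjusted p = 2.54e-05, limma). PDPK1, the kinase that activates Akt, was higher by 0.87 ± 0.15 (adjusted p = 0.00033), and INSR, the insulin receptor, by 0.59 ± 0.21 (adjusted p = 0.0318). Against OVA mice 2 of 11 were called, AKT2 (0.87) and PDPK1 (0.70). Of 9 inhibitors of insulin signalling tested 1 was higher and 2 lower. GRB14, an adaptor that blocks the insulin receptor, was at 10.1 ± 2.18 RPKM in EAE, 23.2 ± 1.35 in OVA and 22.6 ± 2.18 in Ctrl mice (-1.18 ± 0.13 against Ctrl mice, adjusted p = 7.5e-06), SOCS1 was at -1.73 (adjusted p = 7.69e-05) and TRIB1 at 0.77 (adjusted p = 0.00037). Against OVA mice GRB14 (-1.22) and TRIB1 (0.66) were called.

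Of 13 genes tested for the traffic of GLUT4 vesicles, 5 were higher in EAE than in Ctrl mice and none lower, against 14.6% and 11.8% of all genes. They were LNPEP, an aminopeptidase that travels in GLUT4 vesicles (log2 fold change 1.59 ± 0.45, adjusted p = 0.00970, limma), the sorting receptor SORT1 (0.89 ± 0.16, adjusted p = 0.000513), RAB10 (0.79 ± 0.13, adjusted p = 0.00022), a Rab acted on by TBC1D4, SNAP23 (0.79 ± 0.25, adjusted p = 0.0159), a fusion protein, and RAB13 (0.66, adjusted p = 0.00354). Against OVA mice 3 of 13 were higher: RAB13 (1.26), SORT1 (1.01) and ASPSCR1 (0.79), the tether that retains GLUT4 vesicles. Neither of the 2 other glucose transporters and hexokinases tested was called against Ctrl or OVA mice. Of 10 regulators of the GLUT4 gene, 4 were higher and 1 lower than in Ctrl mice, beside the same shares of all genes. HDAC4, a repressor that binds MEF2, was at 15.6 ± 8.05 RPKM in EAE, 3.44 ± 1.33 in OVA and 2.95 ± 0.879 in Ctrl mice (2.27 ± 0.33 against Ctrl mice, adjusted p = 6.7e-05), and MEF2A (2.00, adjusted p = 0.0105), MYOD1 (1.90, adjusted p = 7.7e-05) and MEF2C (1.03, adjusted p = 2.36e-06) were higher, and THRA, a thyroid hormone receptor, was lower (-0.59, adjusted p = 0.000391). Against OVA mice 3 were higher, HDAC4 (2.09), MYOD1 (1.53) and MEF2C (0.75). HDAC4, at 2.95 RPKM in Ctrl mice, entered the test against them only through the EAE group. A call of lower was hardly possible for it there. Of 8 AMPK subunits and kinases tested 1 was lower than in Ctrl mice and 2 than in OVA mice, PRKAG1 in both (-0.90 and -0.77) and PRKAG2 (-0.62).

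Among the relatives of TXNIP, 3 of 10 genes were higher and 1 lower than in Ctrl mice, where 14.6% and 11.8% of all genes were. Its relative ARRDC3 was at 27.6 ± 9.77 RPKM in EAE, 14.7 ± 2.44 in OVA and 11.1 ± 2.48 in Ctrl mice (1.26 ± 0.22, adjusted p = 0.000321, limma), the thioredoxin reductase TXNRD1 was at 1.11 (adjusted p = 0.000604) and thioredoxin, Txn1, the protein TXNIP binds, at 0.73 (adjusted p = 0.0187), while ARRDC1 was at -0.68 (adjusted p = 0.00827). Against OVA mice 3 of 9 were higher, TXNRD1 (1.10), Txn1 (0.93) and ARRDC3 (0.84). Of 5 FoxO relatives and kinases tested, SGK1, a kinase that phosphorylates FoxO, was called against Ctrl mice (1.39 ± 0.26, adjusted p = 0.000532) and OVA mice (0.80, adjusted p = 0.0223). Of 14 FoxO target genes 5 were higher than in Ctrl mice and 1 lower, beside the same shares of all genes. The muscle ubiquitin ligases led them, FBXO32 at 137 ± 78.5 RPKM in EAE, 37.8 ± 6.58 in OVA and 40.3 ± 10.3 in Ctrl mice (1.58 ± 0.33, adjusted p = 0.00123) and TRIM63 at 297 ± 135, 95.04 ± 19.7 and 98.4 ± 17.6 (1.49 ± 0.26, adjusted p = 0.000324). EIF4EBP1 (0.81), a brake on translation, and FBXO30 (0.76) were also higher, with BNIP3 (0.68), a gene of mitophagy, and SESN1 was lower (-0.66). Against OVA mice 3 of 14 were higher: FBXO32 (1.66), TRIM63 (1.54) and EIF4EBP1 (0.96). On day 40 none of the genes of the 9 lists was called between EAE and OVA mice, where 0.209% of all genes were. Between EAE and Ctrl mice, where 0.46% of all genes were called, 1 was, FBXO32 at -0.61 ± 0.14 (adjusted p = 0.0312, limma). With so few calls over all genes, these counts do not set the lists apart.

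For the members called within a day, the genes with the most similar pattern over the 30 mice were sought by Pearson's r on log2 values among 9049 genes. For FOXO1 they were DGAT2 (r = 0.89), a triglyceride synthase, IPO13 (0.89) and TMEM100 (0.88), with r of 0.71, 0.71 and 0.67 after each group's mean was subtracted. For IRS2 they were SKIL (0.87), NR4A3 (0.87), a nuclear receptor induced by exercise, and PER1 (0.86), a clock gene, with 0.85, 0.86 and 0.82. For IRS1 they were ANO5 (0.88), PLS3 (0.87) and SEC24D (0.84), with 0.82, 0.78 and 0.79. For TBC1D1 they were TPR, SNX13 and CUL1 (0.93 each), with 0.90, 0.89 and 0.91, and for FOXO3 il6st, USP9X and FRY (0.96 each), with 0.96, 0.97 and 0.95. FOXO3 and TBC1D1 also followed each other (0.85 with group means subtracted). These mice share their groups and the features of their libraries, and the values are a description.

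For FOXO3 and TBC1D1 the pattern within groups followed a property of the libraries. For each mouse the slope of all genes' log2 deviations on log2 transcript length was estimated. It was -0.30 to 0.08 (median -0.09) in Ctrl mice, -0.31 to 0.14 (median 0.02) in OVA mice and -0.16 to 0.19 (median 0.08) in EAE mice on day 14. The slope on GC content, as a log2 deviation per unit of GC fraction, set the Ctrl libraries of day 14 apart. It was 0.68 to 2.95 in them, wholly above the -1.07 to 0.62 of EAE mice on day 14 and the -1.16 to -0.05 of Ctrl mice on day 40, and -0.53 to 0.75 in OVA mice on day 14. With group means subtracted, the r of the length slope over 30 mice was 0.93 with FOXO3, 0.83 with TBC1D1, 0.61 with IRS2, 0.56 with IRS1, 0.51 with TBC1D4 and 0.42 with HK2, and between -0.12 and 0.31 with SLC2A1, TXNIP, SLC2A4 and FOXO1. The r of the GC slope was 0.49 with SLC2A4, -0.43 with FOXO3 and -0.39 with TBC1D1, and between -0.20 and 0.25 with the other 7. Ctrl mouse 1, with the lowest FOXO3, TBC1D1, IRS1 and IRS2 of its group, had the lowest slope of that group. With each library's slopes on length and GC content removed, the values of EAE against Ctrl mice on day 14 remained past the threshold for FOXO3 (1.52, adjusted p = 0.0129, limma), TBC1D1 (1.15, adjusted p = 0.00289), IRS2 (1.60, adjusted p = 0.00373) and FOXO1 (0.64, adjusted p = 0.0380), and TBC1D4 passed it (-0.64, adjusted p = 0.0192). Against OVA mice TBC1D1 (0.76, adjusted p = 0.0341) and TBC1D4 (-0.64, adjusted p = 0.0208) passed as well. The change in FOXO1 from day 14 to day 40 did not hold under it, at -0.53 (adjusted p = 0.142) relative to Ctrl mice and -0.45 (adjusted p = 0.233) relative to OVA mice, and that in SLC2A4 relative to Ctrl mice was 0.56, under the fold change required, while that in IRS1 relative to OVA mice passed (0.69, adjusted p = 0.0219). This correction was chosen after the data had been seen. It removed the slope over all genes, so a gene that follows length or GC content more steeply keeps part of that pattern. How far FOXO3 and TBC1D1 did so was not tested.

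**Figure D4:**
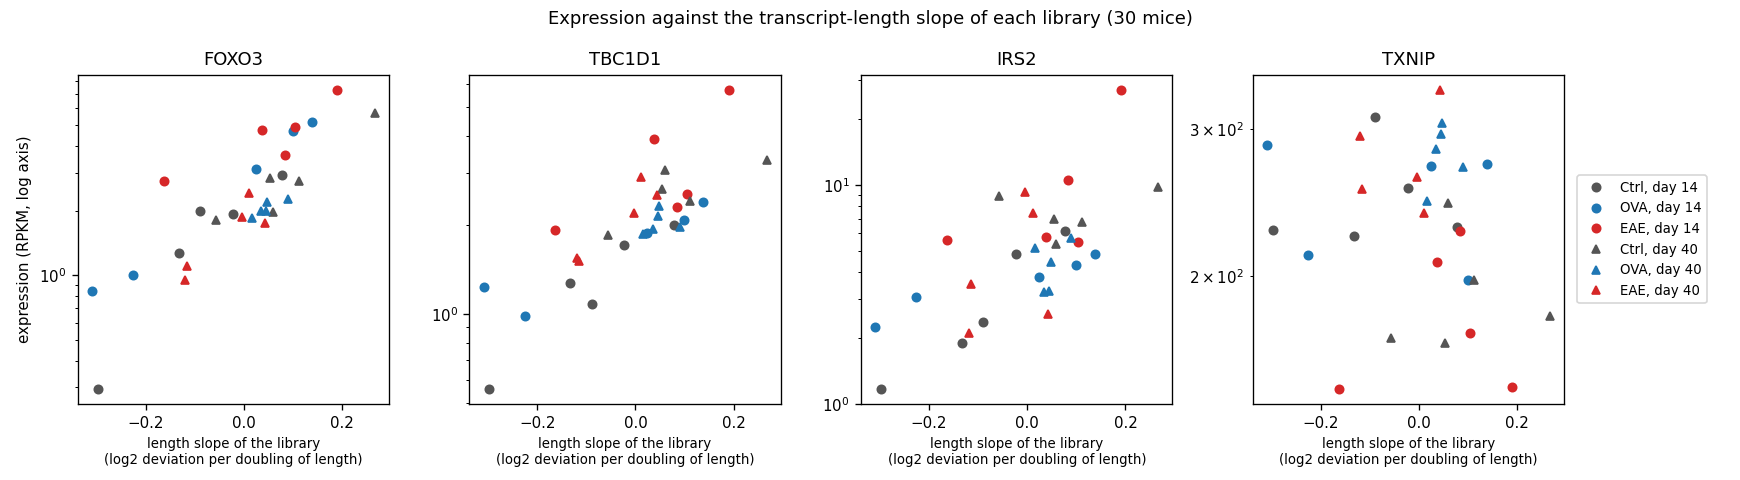
Expression (RPKM, log axes) of FOXO3, TBC1D1, IRS2 and TXNIP in each of the 30 mice against the slope of that library's log2 deviations on log2 transcript length; colours mark the group and shapes the day. FOXO3 and TBC1D1 rise with the slope (r = 0.93 and 0.83 with group means subtracted) and TXNIP does not (0.05).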

How the data were processed

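RNA was taken from EDL muscle, 1 library per mouse. Per the labels and the study's methods, the authors prepared directional poly(A) libraries, sequenced paired ends, used Subread to align them to mm10, assigned reads with featureCounts to the transcripts of RefSeq and expressed the counts as RPKM. The deposited values were log2(RPKM + 1), where 0.0001 stands for a gene that had no read. The log2 step is not given in the sources used here and was read from the values: 61.0% of low values were whole reads (within 0.05 of a read) on that scale, against 37.6% on a natural-log and 20.3% on a linear scale. Values were converted back to RPKM. Reads per gene were estimated from RefSeq-matched exon lengths (none for FOXO3), and coordinates are those of the GRCm38 annotation.

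limma 3.58.1 (R 4.3.3) was fitted with a trend on log2(RPKM + 0.1), so that fold changes of low genes are understated. The 15 mice of a day entered 1 model, and all 30 mice entered the model for comparisons between days. Calls needed a mean above 3 RPKM in a compared group, a fold change above 1.5 and an adjusted p below 0.05, thresholds taken from the study's methods. Ratios were compared by exact permutation tests (scipy 1.17.1). The p-values measure the spread between these mice. The fit was tested on simulated data. Alternatives covered the pseudocount, the filter, the scaling, the mice in the fit, a replicate block, robust shrinkage, no fold-change threshold and leaving out each mouse. The members, the lists and the tests were chosen with earlier results of these data known. The text names all members, at most 4 called genes of a list per comparison (by fold change) and the 3 genes most like each called member; RAB13, THRA, BNIP3 and SESN1 against Ctrl mice were added after their values were seen.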

Additional observations from a re-analysis of the deposited data

Results flagged for a closer look

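In 5 of the 60 sets of 5 mice (10 genes in 6 groups), 1 mouse stood apart from its group by Dixon's criterion, which chance passes in about 1 of 20 sets. OVA mouse 1 of day 14 was low in SLC2A4 (180.5 RPKM) and HK2 (54.32 RPKM), OVA mouse 4 of day 14 was high in SLC2A1 (5.539 RPKM), Ctrl mouse 5 of day 40 was low in HK2 (62.13 RPKM), and Ctrl mouse 1 of day 14 was low in IRS1 (7.65 RPKM).

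The EAE effect differed between the days by the limma interaction term for 6 genes relative to Ctrl mice: SLC2A4 (0.64), TBC1D1 (-1.56), TXNIP (1.01), IRS2 (-2.43), FOXO1 (-0.94) and FOXO3 (-2.43). Relative to OVA mice it did for SLC2A4 (0.72) and FOXO1 (-0.73). Values are log2 differences, day 40 minus day 14.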

How the results depend on the processing

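Of 2213 values of members under the alternatives run, 2137 kept their side of the threshold. A call was lost in 38 and gained in 38, and none with a call changed direction. Most of these values had no call in the main fit. Fits that left a gene untested were not counted, as for TBC1D1 between EAE and Ctrl mice without EAE mouse 2 of day 14. Of EAE against OVA mice on day 14 (3 members called) 1 was called with no filter on the level, and 5 under quantile normalization, with no fold-change threshold and with the length and GC correction. Of EAE against Ctrl mice on day 40 (0 called) 1 was called under median-of-ratios scaling and with no fold-change threshold, in both cases TXNIP. Of the Ctrl groups between days (1 called) 2 were called with no filter, with a filter of 1 RPKM and with no fold-change threshold. Of the change of EAE relative to OVA mice (2 called) 1 was called under median-of-ratios scaling and under quantile normalization, where FOXO1 was at -0.61 and -0.52. The cause was not tested.

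When mice were left out in turn, 2 to 5 members were called between EAE and Ctrl mice on day 14, 1 to 5 between EAE and OVA mice on day 14, 0 to 1 between EAE and Ctrl mice and 0 to 1 between OVA and Ctrl mice on day 40, 2 to 5 between the EAE days, 0 to 2 between the Ctrl days and 1 to 3 for the change relative to OVA mice. Of the ratios 0 to 4 passed, since leaving out a mouse raises the smallest p that the exact test can give.

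The replicate numbers were not taken to pair the mice, since in no comparison did all 5 same-numbered pairs correlate above 0.1: 3 of 5 did for EAE and OVA mice (0.03 to 0.70) and for OVA and Ctrl mice (-0.73 to 0.61) on day 14, 1 for EAE and Ctrl mice (-0.23 to 0.51), and at most 1 on day 40. With a replicate block 4 members were called between EAE and Ctrl mice and 4 between EAE and OVA mice on day 14, the added one being TBC1D1, and no other call of a member changed.

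Over all genes, 1036 were called lower and 1282 higher in EAE than in Ctrl mice on day 14, against 1966 lower with no filter and 2530 higher with no fold-change threshold. On day 40 34 were lower, and 0 with all 30 mice in 1 model. For the change of EAE relative to Ctrl mice, median-of-ratios scaling moved the median of all genes by 0.13 and the share of calls that were upward from 35.9% to 51.3%, and relative to OVA mice from 37.4% to 53.1%. Levels near 3 RPKM limit TBC1D1 and FOXO3, which several fits left untested.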
